A study of Homo sapiens with 36 samples.

Results

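The late response of JEKO cells to KDM5 inhibition was read from 6 of the 36 RNA sequencing libraries of the series, chosen by their labels. JEKO is an established human mantle cell lymphoma line, a B-cell cancer in which cyclin D1 is typically switched on by a translocation. Of the 6 libraries, 3 came from cells given GS716054, labelled as a KDM5 inhibitor, and 3 from cells given the vehicle DMSO, all collected 72 h after treatment and numbered as biological replicates 1 to 3. The dose is not given in the sources used here. All cells were grown in RPMI-1640 with fetal bovine serum. JEKO was also sampled at 24 h, and MINO and UPN-1, further mantle cell lymphoma lines, were sampled at both times with 3 replicates in each of the series' 12 groups. Everything below describes 1 line in culture, and where the replicate cultures parted is not stated, so p-values measure the spread between these samples.

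KDM5 enzymes (KDM5A, KDM5B, KDM5C and the Y-linked KDM5D) remove methyl groups from lysine 4 of histone H3. The trimethyl form of that mark sits at the promoters of active genes, and loss of KDM5 activity is known to raise it. KDM5A and KDM5B are best known as repressors of cell-cycle exit and differentiation genes.

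The 6 libraries held 10903225 to 12538328 reads in genes, 40.7% to 43.4% of all reads, and between 22631 and 24533 genes had at least 1 read. Levels are given as CPM, the reads of a gene scaled to a fixed total of gene reads per library after TMM scaling, and 3 reads correspond to 0.232 to 0.261 CPM. GS716054 replicate 1 had the largest share of mitochondrial reads (range over the 6 libraries 3.96% to 5.48%), the most genes with a read and the smallest share of reads in genes. The first principal component of the 6 libraries (44.7% of the variance) set the DMSO and GS716054 libraries of replicate 1 apart from the other 4, and the second (22.1%) separated the treatments. B-cell markers fixed for this line summed to 4221 to 5220 CPM with DMSO and 3059 to 4191 CPM with GS716054, with CD200 without reads. The cyclin gene CCND1, which is in that list of 13, made up 1343 to 3079 CPM of these sums, and without it the sums overlapped, at 1625 to 2142 CPM and 1717 to 2126 CPM. Of 20 monocyte and granulocyte markers 11 had no read in any of the 6 libraries, and the list summed to 14.8 to 24.6 CPM with DMSO and 17.7 to 24.9 CPM with GS716054. Of 19 stromal, endothelial and epithelial markers 7 had no read, and the sums were 35.4 to 43.6 CPM and 36.1 to 46.2 CPM.

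At 72 h, 6 of 17 genes tested in an immunoglobulin list were lower with GS716054, among them IGHG2 and IGHE of switched antibody classes. The list holds mainly constant genes, with IGLL5, IGLL1, VPREB1, VPREB3 and JCHAIN beside them. Higher were 7 of 40 replication-dependent histone genes, the neuronal genes VGF and NPTX2 (2 of 24 tested) and 3 of 12 T and NK cell markers. Among these markers, CD3D had enough reads for the test only in the treated 72 h libraries. In edgeR's quasi-likelihood test with the replicate number as a block, 113 of 16690 genes passed a Benjamini-Hochberg adjusted p of 0.05 (0.677%), 85 higher with GS716054 (0.509%) and 28 lower (0.168%). Before adjustment, 1823 genes (10.9%) were under 0.05. Genes that passed the adjusted test are termed called below. Same-numbered DMSO and GS716054 libraries at 72 h deviated together (correlations of 0.593, 0.551 and 0.291 over genes). Between libraries of the same number at 24 h and 72 h the correlations were weak and mixed, from -0.142 to 0.169. With a block for each number within each time, termed the within-time fit, 557 genes passed (3.34%), 316 higher (1.89%) and 241 lower (1.44%), and all 113 were among them. The share of higher genes was 75.2% in the first fit and 56.7% in the within-time fit. The call count fell to between 20, without DMSO replicate 3, and 65, without DMSO replicate 2, when single libraries were left out, and all 113 genes kept their direction. In the 24 h DMSO libraries, the median level was 8.1 CPM for the raised and 32.2 CPM for the lowered genes, against 16.9 CPM over all genes tested, without correction for gene length. Of the raised genes, 70 of 85 were protein coding (82.4%) and 12 were long noncoding RNAs (14.1%). Of the 28 lowered genes, 20 (71.4%) and 2 (7.14%) were. Over all genes tested the shares were 74.4% and 17.6%.

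**Figure D1:**
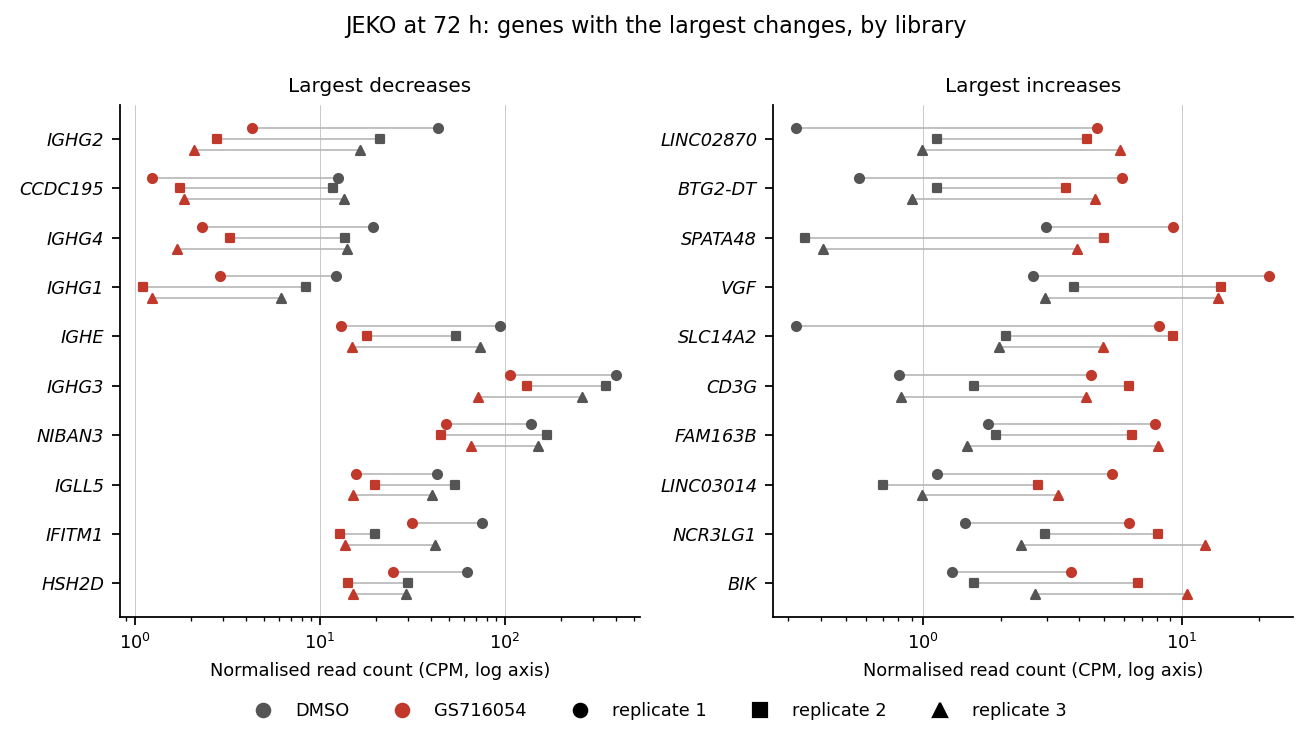
CPM (log axis) of 10 lowered and 10 raised genes in the 3 DMSO libraries (grey) and 3 GS716054 libraries (red) of JEKO at 72 h. Marker shapes show the replicate, and a line joins each same-numbered pair. Drawn are the largest changes among called genes that have a symbol, average 1 or more in log2 CPM and keep their direction in all 3 pairs. Larger called changes outside these limits, such as COPDA1 (log2 fold change -4.7) and CD96 (3.95), are not drawn. IGHG2 ran from 16.4 to 43.5 CPM with DMSO and from 2.08 to 4.3 CPM with GS716054, and VGF from 2.66 to 3.83 and from 13.8 to 21.8 CPM, while the IFITM1 groups overlap.

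The mRNAs of the targeted enzymes were examined first. KDM5A stood at 63.2, 98.6 and 97.6 CPM in DMSO replicates 1 to 3 and at 84, 99.1 and 94.6 CPM with GS716054. KDM5C stood at 139, 202 and 199 CPM and at 173, 191 and 182 CPM. KDM5B stood at 17, 59.2 and 27.9 CPM and at 39.1, 68.1 and 41.3 CPM, higher with GS716054 in each pair but with overlapping groups. None of them was called: the log2 fold changes were 0.11 for KDM5A (edgeR adjusted p = 0.878), 0.03 for KDM5C (0.98) and 0.58 for KDM5B (SE 0.25, 0.408, and 0.0641 in the within-time fit). KDM5D had no read in any of the 6 libraries. An enzyme inhibitor need not alter the mRNA of its target, so these levels do not check the labels. Of 24 further genes for enzymes that write or erase methyl groups on lysine 4, 0 were called by edgeR or DESeq2 and 0 had an unadjusted p under 0.05, with a median log2 fold change of -0.03 beside 0.00433 over all genes tested.

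The immunoglobulin constant genes encode the part of the antibody heavy or light chain that sets its class. On chromosome 14, IGHM and IGHD serve the unswitched classes, and the IGHG, IGHE and IGHA genes serve classes reached by switching. IGHG2 (chr14:105639559-105644790, GRCh38) stood at 43.5, 21.1 and 16.4 CPM with DMSO and at 4.3, 2.78 and 2.08 CPM with GS716054. The groups were far apart, an 8.52-fold decrease (log2 fold change -3.09, SE 0.20, edgeR adjusted p = 1.77e-05). IGHG4 stood at 19.3, 13.6 and 14.1 CPM and at 2.31, 3.26 and 1.7 CPM (-2.69, SE 0.31, adjusted p = 0.00148). IGHG1 stood at 12.2, 8.45 and 6.15 CPM and at 2.89, 1.11 and 1.23 CPM (-2.37, SE 0.29, adjusted p = 0.00278). These decreases held in all 3 pairs, and no DMSO library came down to the treated range. IGHE stood at 94.3, 54.1 and 73.6 CPM with DMSO and at 13.1, 17.9 and 15 CPM with GS716054 (-2.27, SE 0.23, adjusted p = 0.000781). IGHG3 stood at 400, 351 and 260 CPM and at 107, 132 and 71.6 CPM (-1.71, SE 0.17, adjusted p = 0.000781). The IGHG genes are near-identical copies, and reads could be split between them or left uncounted, so the values of single IGHG genes are uncertain.

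Not every heavy-chain gene moved with them. IGHA1, which lies between IGHG1 and IGHG2 on the chromosome (chr14:105703995-105708665), stood at 53.7, 38.1 and 40 CPM with DMSO and at 32.2, 39.5 and 34.3 CPM with GS716054, overlapping groups with a log2 fold change of -0.31 (edgeR adjusted p = 0.623). IGHA2 stood at 23.3, 10.1 and 7.29 CPM and at 15.2, 14.7 and 12.8 CPM, also overlapping (0.13, adjusted p = 0.94). IGHM, the heavy chain of the surface receptor typical of mantle cell lymphoma, stood at 6415, 4882 and 4766 CPM and at 3557, 3953 and 3211 CPM. Its groups did not overlap, but it was not called (-0.57, adjusted p = 0.278). IGHD stood at 306, 284 and 201 CPM and at 171, 193 and 99.6 CPM and was not called (-0.78, edgeR adjusted p = 0.125), but passed in the within-time fit (0.00463), in the 6 libraries alone (0.00417) and with DESeq2 (0.0253). IGKC, the kappa light chain gene, had a log2 fold change of -0.52 (adjusted p = 0.383), and JCHAIN, which joins IgM or IgA into polymers, one of 0.33 (0.683). IGHA1, IGHA2, IGHM, IGHD, IGKC and JCHAIN were chosen after their values were seen. IGLL5, a gene at the lambda light chain locus, was called: it stood at 42.9, 53.5 and 40.5 CPM and at 15.7, 19.9 and 15.1 CPM (-1.43, SE 0.16, adjusted p = 0.00145).

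Of 17 genes with enough reads in the immunoglobulin list, 6 were called lower and 0 higher, and the within-time fit called 7 lower. The list is not of constant genes alone, as it includes IGLL5, VPREB3 and JCHAIN. Its median log2 fold change was -0.58, 15 of the 17 were below 0, and 10 had lower treated libraries with no overlap (4.68% over all genes tested). VPREB3 was among these 10, and JCHAIN was above 0. Summed over the list, the libraries held 7626 to 10727 CPM with DMSO and 5369 to 6437 CPM with GS716054. IGHG2, IGHG4, IGHG1, IGHE, IGHG3 and IGLL5 were called whichever single library was left out. A noncoding gene of the same locus fell with them. COPDA1 (chr14:105647924-105649057) lies next to IGHG2, on the same strand and upstream of it, and had 36, 10 and 17 reads with DMSO and 1, 0 and 1 with GS716054. The ratio after scaling was 32.9 (exact 95% interval for counting error 8.73 to 277, edgeR adjusted p = 0.00836), and the call ended without replicate 1 or 3 of DMSO or 1 of GS716054. IGHV2-70, the variable gene with the most reads at the locus, was picked with its values in view and had a log2 fold change of -0.50 (adjusted p = 0.287), close to that of IGHM. In bulk RNA, fewer cells that express a gene and less of its RNA per cell cannot be told apart.

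Among the other lowered genes, CCDC195, which encodes a coiled-coil protein (chr2:224703764-224716365), stood at 12.6, 11.8 and 13.5 CPM with DMSO and at 1.24, 1.75 and 1.85 CPM with GS716054. The replicates were tight within each group, and the decrease was 7.81-fold (log2 fold change -2.97, SE 0.24, edgeR adjusted p = 0.000106). NIBAN3, a gene of the Niban family expressed in B cells, stood at 138, 170 and 150 CPM and at 48.2, 44.9 and 65.9 CPM (-1.54, SE 0.16, adjusted p = 0.000876). Both remained called whichever single library was left out.

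The levels of IFITM1, HLA-F and HSH2D, all called lower, varied widely between replicates. IFITM1, an interferon-induced membrane protein that restricts virus entry, stood at 75.2, 19.8 and 42 CPM with DMSO and at 31.6, 12.9 and 13.7 CPM with GS716054. The groups overlapped, while each pair was lower with GS716054 (-1.20, SE 0.25, adjusted p = 0.0486). HLA-F, a nonclassical MHC class I gene, stood at 69.4, 19.6 and 25.4 CPM and at 29.7, 10.2 and 12.9 CPM, again with overlap (-1.06, SE 0.21, adjusted p = 0.0406). HSH2D, an SH2-domain adaptor of blood cells, stood at 62.4, 29.8 and 29.1 CPM and at 24.7, 14.2 and 15 CPM without overlap (-1.14, SE 0.23, adjusted p = 0.0418). Replicate 1 was the highest of its group in all 3 genes. The call of HSH2D was lost without any one of the 6 libraries, and those of IFITM1 and HLA-F without any but DMSO replicate 2, while all 3 passed every such omission in the within-time fit. Of the HLA-F exon bases, 28% overlap exons of a gene on the other strand, and strand was not stated for the counting.

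VGF, a secreted neuropeptide precursor of neurons and endocrine cells (chr7:101162509-101165569), was the raised gene with the smallest p. It stood at 2.66, 3.83 and 2.95 CPM with DMSO and at 21.8, 14.2 and 13.8 CPM with GS716054. The treated libraries were all well above the controls, a 5.15-fold increase (log2 fold change 2.36, SE 0.26, edgeR adjusted p = 0.00125). NPTX2, a neuronal pentraxin found at synapses, stood at 2.98, 1.57 and 1.97 CPM and at 9.17, 5.96 and 6.79 CPM (1.76, SE 0.26, adjusted p = 0.0104). Of 24 neuronal and synaptic genes tested, these 2 were called higher and 0 lower, and the within-time fit added STMN3 and CPLX1, also higher. The median log2 fold change of the list was 0.28. CEND1, a neuronal membrane protein linked to cell-cycle exit, is outside that list and stood at 14.5, 11.8 and 13.1 CPM and at 33.9, 30.7 and 37.2 CPM (1.36, SE 0.17, adjusted p = 0.00338). CADM1, an immunoglobulin-family adhesion molecule, stood at 21.8, 24.9 and 27 CPM and at 59.4, 61.1 and 56.6 CPM (1.27, SE 0.15, adjusted p = 0.00252). For both genes the treated values exceeded every control value. MRO rose from 3.14, 4.36 and 3.2 CPM to 12.1, 13.4 and 10.3 CPM (1.74, SE 0.20, adjusted p = 0.00145). VGF, CEND1, CADM1 and MRO remained called whichever single library was left out, while NPTX2 lost its call without replicate 1 or 3 of either group.

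Of 26 T and NK cell markers, 12 had enough reads to be tested, 3 were called higher (LCK, CD3G and CD3D) and 0 lower, with a median of 0.46, and the within-time fit added ZAP70. LCK, the tyrosine kinase that starts T-cell receptor signalling and is also found in some B-cell cancers, stood at 16.3, 8.62 and 6.72 CPM with DMSO and at 49.1, 40.3 and 22.4 CPM with GS716054. The lowest treated library lay above the highest control (1.83, SE 0.28, edgeR adjusted p = 0.0119). CD3G, a chain of the T-cell receptor complex, stood at 0.805, 1.57 and 0.819 CPM and at 4.46, 6.27 and 4.24 CPM (2.24, SE 0.46, adjusted p = 0.0486). Its partner CD3D had 3, 2 and 2 reads with DMSO and 27, 42 and 12 with GS716054, a ratio of 11.1 (exact 95% interval for counting error 5.15 to 28.5, adjusted p = 0.0367). At 24 h its means were 0.309 CPM with DMSO and 0.472 CPM with GS716054. Only the treated 72 h libraries brought CD3D over the minimum of reads, so it could be tested only if raised. The counts of 3 higher and 0 lower among 12, and the median, therefore follow in part from the filter. The whole list summed to 264 to 369 CPM with DMSO and 314 to 389 CPM with GS716054, ranges that overlap. CD2, EOMES, GZMA, GZMB and GZMK had no read in any of the 6 libraries, and TRAC, CD247 and TRBC2 stood above 41 CPM in every library of both groups. The calls of CD3G and CD3D were lost without any one library, and that of LCK without replicate 2 or 3 of DMSO or 1 or 2 of GS716054.

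NCR3LG1, the ligand of the NK-cell receptor NKp30, stood at 1.45, 2.96 and 2.38 CPM with DMSO and at 6.28, 8.1 and 12.3 CPM with GS716054 (1.96, SE 0.26, edgeR adjusted p = 0.00401), and lost its call without DMSO replicate 3. BIK, a BH3-only protein that promotes apoptosis, stood at 1.29, 1.57 and 2.7 CPM and at 3.72, 6.75 and 10.5 CPM (1.90, SE 0.30, adjusted p = 0.0136). It was the only called gene among the 16 of the BCL2 family tested. CD86, the costimulatory ligand of CD28, stood at 35.6, 25.6 and 28 CPM and at 47.6, 45.7 and 46.7 CPM, a smaller change with tight treated values (0.66, SE 0.13, adjusted p = 0.0399). FAM163B stood at 1.77, 1.92 and 1.47 CPM and at 7.85, 6.43 and 8.1 CPM (2.10, SE 0.31, adjusted p = 0.00989). SLC14A2, a urea transporter, stood at 0.322, 2.09 and 1.97 CPM and at 8.18, 9.21 and 4.94 CPM (2.35, SE 0.46, adjusted p = 0.0415). For all 5 genes the groups were apart. The remaining members of the 10 largest increases were SPATA48 (2.46) and the noncoding LINC02870 (2.60), BTG2-DT (2.48) and LINC03014 (2.01), all below 6 CPM in the treated libraries except SPATA48 in replicate 1. HES7, a basic helix-loop-helix repressor, had 3, 6 and 1 reads with DMSO and 40, 16 and 36 with GS716054 (ratio 8.82, exact 95% interval for counting error 4.59 to 19, adjusted p = 0.0486). TP53I11 rose from 75.2, 82.3 and 73.7 CPM to 109, 131 and 103 CPM (0.57, SE 0.11, adjusted p = 0.0418). The calls of BIK, CD86, FAM163B, SLC14A2, HES7, TP53I11, SPATA48, LINC02870, BTG2-DT and LINC03014 each ended without DMSO replicate 3 and without at least 2 further libraries.

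PRDM1, the repressor that drives B cells toward plasma cells, stood at 3.7, 3.14 and 5.24 CPM with DMSO and at 11.9, 8.5 and 10.3 CPM with GS716054, without overlap (1.35, SE 0.20, edgeR adjusted p = 0.0107). Its call ended without DMSO replicate 1 or GS716054 replicate 1. Of 25 genes of plasma cell differentiation and secretion, PRDM1 was the only called one, and the median was -0.22. In the within-time fit, SDC1, the plasma cell surface proteoglycan CD138, was also higher, at 1.69, 1.57 and 1.23 CPM and at 4.05, 5.56 and 3.47 CPM (edgeR adjusted p = 0.0671 in the first fit and 0.0264 there). In that fit TNFRSF17, the plasma cell receptor BCMA, was lower, at 34.4, 16.2 and 18.9 CPM and at 14.5, 8.97 and 8.72 CPM (adjusted p = 0.112 and 0.00667), as were IRF4, a regulator of plasma cell fate (log2 fold change -0.58, adjusted p = 0.14 and 0.0354), and HERPUD1 (-0.58, adjusted p = 0.4 and 0.02). SDC1, TNFRSF17, IRF4 and HERPUD1 were chosen after their values were seen. In the within-time fit SDC1 passed in 0 of the 6 omissions of single libraries, while TNFRSF17 failed in 2 and IRF4 and HERPUD1 in 4 each. SOX11, the transcription factor that marks conventional mantle cell lymphoma, stood at 79.7, 142 and 92 CPM and at 92, 121 and 98.9 CPM, with a log2 fold change of 0.02 (adjusted p = 0.987).

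CCND1, the cyclin D1 gene that marks the disease, stood at 2596, 3079 and 2438 CPM with DMSO and at 1343, 2064 and 1719 CPM with GS716054. The groups did not overlap, but CCND1 was not called (-0.67, SE 0.20, edgeR adjusted p = 0.185). It passed in the within-time fit (adjusted p = 0.0323), in the 6 libraries alone (0.0245), in the fit of all 36 libraries (0.045) and with DESeq2 (0.0134). CCND2, the related cyclin D2, was called higher, at 4.26, 2.53 and 1.72 CPM and at 12.1, 7.07 and 7.49 CPM (1.68, SE 0.26, adjusted p = 0.0115). That call ended without replicate 1 or 3 of either group. MXD4, a MAX partner that opposes MYC at its target genes, stood at 108, 85.8 and 65.3 CPM and at 157, 133 and 126 CPM (0.70, SE 0.14, adjusted p = 0.0418) and was the only called gene among 11 of the MYC network, a call lost without any one library. MYC itself stood at 582, 732 and 592 CPM and at 671, 775 and 652 CPM, overlapping groups (0.14, adjusted p = 0.794). CDKN1A, an inhibitor of cyclin-dependent kinases, had a log2 fold change of -0.42 (adjusted p = 0.366). The survival genes BCL2 (-0.38, adjusted p = 0.24) and MCL1 (0.32, adjusted p = 0.404) and the kinase gene BTK (0.14, adjusted p = 0.758), which encodes a drug target of the disease, were not called either.

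Histone genes are expressed mainly in S phase to package new DNA, and their mRNAs mostly end in a stem-loop in place of a poly(A) tail. H2AC6 stood at 27.5, 30.4 and 18.2 CPM with DMSO and at 55.2, 60.9 and 46.8 CPM with GS716054 (1.12, SE 0.14, edgeR adjusted p = 0.00258). H3C10 stood at 8.61, 8.89 and 5.74 CPM and at 27.6, 20 and 18.3 CPM (1.5, SE 0.21, adjusted p = 0.00586). H2BC5 stood at 14.7, 25.1 and 15.3 CPM and at 40.1, 60.4 and 32.4 CPM (1.26, SE 0.21, adjusted p = 0.0213). H1-2, a linker histone gene, stood at 24.9, 31.4 and 30.4 CPM and at 50.1, 74 and 62.1 CPM (1.10, SE 0.19, adjusted p = 0.0244). In each of the 4, every treated library exceeded every control. Of 40 replication-dependent histone genes tested, 7 were called higher (these 4, H2AC11 at 0.93, H2BC8 at 0.90 and H2BC12 at 0.77) and 0 lower. The within-time fit called 10 higher, adding H3C6, H2AC8 and H4C8. In that fit H3C6, H4C8 and H2BC12 passed in 0 of the 6 omissions of single libraries, and H2AC8 failed in 4.

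The histone list had a median log2 fold change of 0.80, with 32 of 40 above 0 and 22 higher without overlap (6.6% over all genes tested). Members ran from -1.52 for H4C1 to 2.10 for H3C13, extremes with few reads and not called. H4C1 had 0, 9 and 11 reads with DMSO and 3, 1 and 3 with GS716054, and H3C13 had 5, 3 and 3 and 27, 10 and 14. Summed over the list, the libraries held 237 to 287 CPM with DMSO and 456 to 484 CPM with GS716054. The median within-pair log2 ratio (0.5 CPM added) was 0.87 in pair 1, 0.33 in pair 2 and 0.75 in pair 3. With single libraries left out, 1 to 4 histone genes were called, and 4 to 8 in the within-time fit. H2AC6 was called in each omission, H3C10 not without DMSO replicate 1 or 3, H2BC5 not without replicate 1 or 3 of DMSO or 2 or 3 of GS716054, and H1-2 only without GS716054 replicate 1. Many histone genes are short and alike in sequence within their class, so reads can be split between copies. The gene models of H2AC6 (chr6:26124145-26139116) and H2BC5 (chr6:26158122-26171349) are longer. Per the labels the RNA came from a Qiagen mRNA kit. Whether the libraries were selected for poly(A) RNA is not stated in the sources used here.

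The promoters of the 4 histone genes with the largest called increase are shown, to set their sequences beside each other. Each line gives the 120 bases before the gene start in RefSeq (GRCh38.p14), 5′ to 3′ on the gene's strand, with CCAAT or its reverse complement ATTGG in capitals. H2AC6 lies at chr6:26124052-26124171 (plus strand), H3C10 at chr6:27809931-27810050 (plus), H2BC5 at chr6:26158001-26158120 (plus) and H1-2 at chr6:26056471-26056590 (minus).
H2AC6: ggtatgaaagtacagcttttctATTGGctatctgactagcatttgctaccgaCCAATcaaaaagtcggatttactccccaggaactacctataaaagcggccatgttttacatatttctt
H3C10: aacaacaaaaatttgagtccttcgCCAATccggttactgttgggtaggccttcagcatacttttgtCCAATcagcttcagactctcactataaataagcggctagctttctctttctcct
H2BC5: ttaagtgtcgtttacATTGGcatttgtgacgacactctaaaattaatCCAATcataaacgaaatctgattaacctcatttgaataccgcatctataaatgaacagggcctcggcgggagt
H1-2: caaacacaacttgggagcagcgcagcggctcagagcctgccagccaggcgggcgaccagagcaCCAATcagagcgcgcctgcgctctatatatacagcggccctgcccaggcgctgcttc
CCAAT, the box bound by the factor NF-Y at many S-phase promoters, was found on either strand in 32 of the 36 histone promoters matched by symbol (88.9%), from 250 bases before to 50 after the start. The share was 35.7% of all 27305 promoters of that length. This describes the sequence and is no measure of binding.

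Interferon-stimulated genes are switched on by type I interferon or by nucleic acid sensing and encode antiviral proteins. Of 50 tested, 0 were called in the first fit, 47 had a log2 fold change below 0 and the median was -0.90. At an unadjusted p under 0.05, 24 were lower and 1 higher in edgeR, and DESeq2 called 1, IRF1. With blocks within each time, 19 passed, all lower. The examples that follow were chosen after their values were seen. IFIT1, an antiviral RNA-binding protein, stood at 18.7, 0.0871 and 11.8 CPM in DMSO replicates 1 to 3 and at 6.86, 0 and 0.309 CPM with GS716054. MX1, an antiviral GTPase, stood at 521, 29.7 and 282 CPM and at 220, 21.1 and 22.7 CPM. IFI27 stood at 126, 0.0871 and 5.9 CPM and at 19.9, 0.159 and 0.772 CPM. Replicate 2 was the lowest of both groups, and the groups overlapped in each of these genes. The log2 fold changes were -2.48 for IFIT1 (edgeR adjusted p = 0.13, and 0.0362 within times), -1.67 for MX1 (0.383 and 0.0445) and -2.36 for IFI27 (0.475 and 0.000612). For IFI27 it ran from -4.95 to 0.75 when single libraries were left out and was above 0 without DMSO replicate 1. IRF1, a transcription factor of the interferon response, stood at 137, 72.7 and 124 CPM and at 80.3, 46.7 and 58 CPM, with a log2 fold change of -0.84 (0.0501 and 0.0031), and 22.9% of its exon bases overlap a gene on the other strand.

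The interferon genes differed in size of change between the 3 pairs. The median within-pair log2 ratio of the 50 genes (0.5 CPM added) was -0.86 in pair 1, -0.17 in pair 2 and -1.65 in pair 3. Summed over the list, DMSO replicates 1 to 3 held 4552, 1157 and 2679 CPM, and the GS716054 libraries 2617, 1117 and 1119 CPM. DMSO replicate 2 was level with the treated libraries of replicates 2 and 3, and 1 gene of the 50 was lower without overlap. In the within-time fit the count of 19 went to 2 without DMSO replicate 3 or GS716054 replicate 3, to 11 or 12 without a library of pair 1, and to 22 without one of pair 2.

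**Figure D2:**
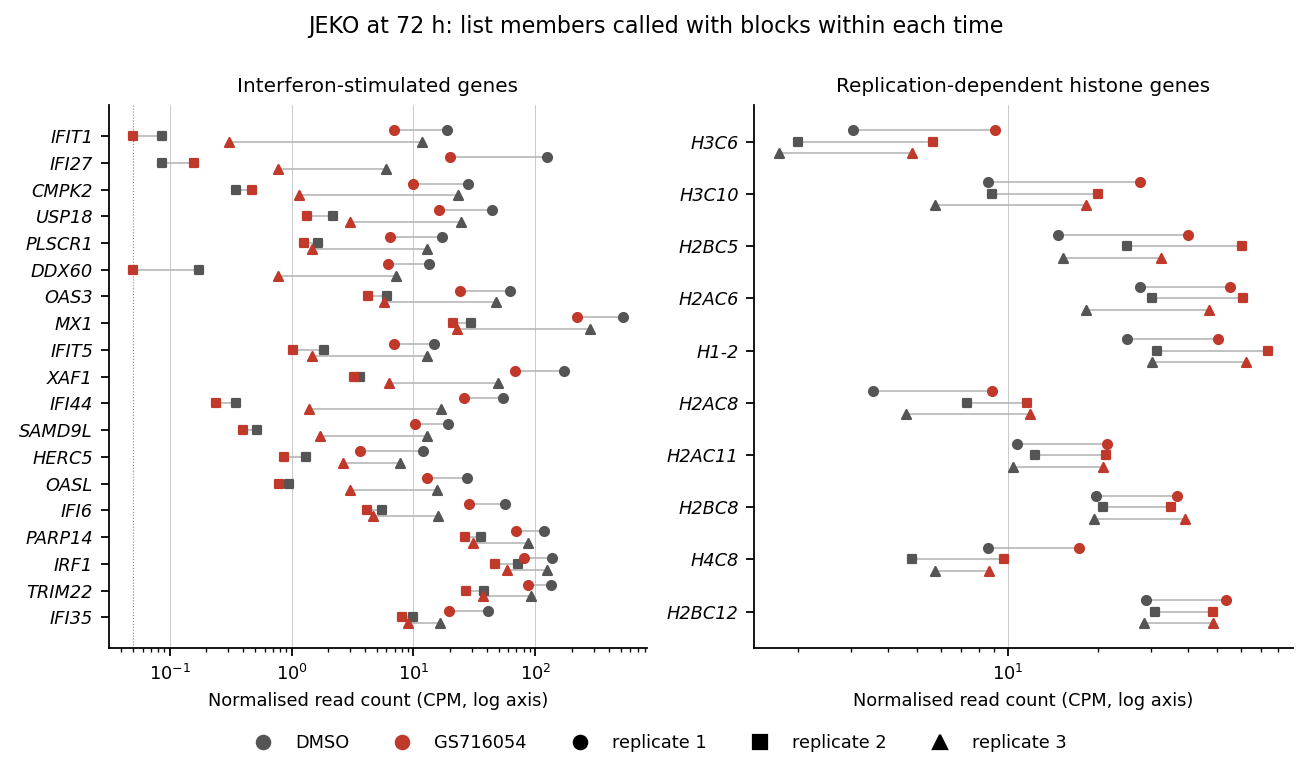
CPM (log axis) in the 3 DMSO (grey) and 3 GS716054 (red) libraries of JEKO at 72 h for the 19 interferon-stimulated genes lower and the 10 histone genes higher in the within-time fit, with a marker shape per replicate. Values of 0 are drawn at the dotted line at 0.05 CPM. The interferon genes spread between replicates, as in MX1 from 29.7 to 521 CPM with DMSO, while histone genes such as H2AC6 stay within 18.2 to 30.4 CPM with DMSO and 46.8 to 60.9 CPM with GS716054.

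Stretches of the promoters of IFIT1, IFI27 and IFI44 are shown for the element that interferon-activated factors bind, with 25 flanking bases where the window allowed. The motif searched was GAAANNGAAA on either strand, whose reverse complement is TTTCNNTTTC, and matches are in capitals. The stretches are 5′ to 3′ on the gene's strand, from RefSeq (GRCh38.p14), for IFIT1 at chr10:89392482-89392554, IFI27 at chr14:94110603-94110675 and IFI44 at chr1:78649746-78649788, all on the plus strand. IFI44 stood at 54.5, 0.348 and 16.8 CPM with DMSO and at 26.2, 0.238 and 1.39 CPM with GS716054.
IFIT1: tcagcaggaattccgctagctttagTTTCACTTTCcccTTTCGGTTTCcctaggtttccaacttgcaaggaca
IFI27: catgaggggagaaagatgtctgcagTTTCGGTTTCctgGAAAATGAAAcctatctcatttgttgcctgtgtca
IFI44: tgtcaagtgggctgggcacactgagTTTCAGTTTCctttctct
The motif was found in 26 of the 40 promoters matched for the 50 interferon genes (65%), in 11 of the 16 matched for the 19 lower in the within-time fit (68.8%) and in 3.65% of all 27305 promoters of the same length. A match is a run of letters and no measure of factor binding.

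Genes of DNA replication and the G1/S step license and copy the genome. Of 47 tested, 0 were called in the first fit and 9 were lower within times, 46 had a log2 fold change below 0 and the median was -0.38. At an unadjusted edgeR p under 0.05, 14 were lower and 0 higher, and DESeq2 called 2 lower. CDT1, a licensing factor, stood at 144, 224 and 276 CPM with DMSO and at 48.4, 124 and 152 CPM with GS716054, lower in each pair with overlap between groups (-1.04, SE 0.24, edgeR adjusted p = 0.0764, and 0.00277 within times). E2F1, the transcription factor of the G1/S genes, stood at 122, 139 and 165 CPM and at 58.6, 79.3 and 123 CPM (-0.75, SE 0.16, adjusted p = 0.0504, and 0.00709 within times). Both genes were chosen after their values were seen. The median within-pair log2 ratio was -0.67, -0.33 and -0.20 in pairs 1 to 3, and 40 of the 47 genes were below 0 in every pair. The 9 within-time calls fell to 1 or 2 when any one library was left out. Of 51 mitosis and G2/M genes 0 passed in either edgeR fit or in DESeq2 and 2 had an unadjusted p under 0.05, with a median of -0.18 and pair medians of -0.46, -0.26 and 0.06. Of 49 DNA damage response and repair genes 0 were called and 7 were lower within times, with a median of -0.15. Of these 49, 9 were lower at an unadjusted edgeR p under 0.05 and DESeq2 called 0.

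The ATF4 pathway raises amino acid synthesis and tRNA charging genes under stress. Of 35 such genes 0 were called and 9 were lower within times, 30 were below 0 and the median was -0.33, with pair medians of -0.07, -0.46 and -0.31. TRIB3, a pseudokinase induced by ATF4, stood at 868, 109 and 533 CPM with DMSO and at 400, 76 and 150 CPM with GS716054, with overlap (-1.24, edgeR adjusted p = 0.295, and 0.00828 within times). Its choice followed a look at its values. The 9 became 2 to 8 when single libraries were left out, 8 were lower at an unadjusted p under 0.05, and DESeq2 called 2 lower. Of 26 unfolded protein response genes 0 were called and 4 were lower within times (DDIT3, PPP1R15A, ERN1 and HERPUD1), with a median of -0.28, while 6 were lower at an unadjusted edgeR p under 0.05 and DESeq2 called 0.

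Pathways of B-cell identity gave few calls in the first fit, and larger shares than all genes in the others. Over all genes tested, 0.677% were called in the first fit, 3.34% passed within times and 10.9% had an unadjusted edgeR p under 0.05. Of 31 B-cell receptor signalling genes edgeR called 0 (8 at an unadjusted p under 0.05, 25.8%) and DESeq2 called 1. Within times VAV1 was higher and CD81, VAV2, PIK3CD and NFATC1 lower (16.1% of the list). Of 32 MHC antigen presentation genes HLA-F was called, lower, and HLA-B and HLA-C joined it within times (9.38% of the list). At an unadjusted edgeR p under 0.05, 8 were lower (25%) and 0 higher, and DESeq2 called 2 lower. Of 33 NF-kappaB pathway and target genes edgeR called 0 (7 at an unadjusted p under 0.05, all lower, 21.2%) and DESeq2 4. Within times RELB, CD40, TRAF3 and IRF4 were lower (12.1% of the list). Of 30 surface lineage and Fc receptor-like genes CD86 was called, higher. Within times MS4A1, which encodes CD20, and FCRL5 were higher too and TNFRSF17, CD37 and CD40 lower, together with CD86 20% of the list. At an unadjusted edgeR p under 0.05, 8 were higher and 5 lower (43.3% together), and DESeq2 called 2 higher and 3 lower. MS4A1 stood at 217, 356 and 288 CPM with DMSO and at 397, 433 and 436 CPM with GS716054, groups without overlap (0.57, edgeR adjusted p = 0.164, and 0.027 within times). The members named here from the within-time fit were chosen after their values were seen. In that fit VAV1, CD81, PIK3CD, NFATC1, HLA-B, CD40, TRAF3 and FCRL5 passed in 0 of the 6 omissions of single libraries. VAV2, HLA-C, RELB, IRF4, MS4A1 and CD37 each failed in 4 of them, and TNFRSF17 in 2.

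Metabolic lists gave few or no calls. Of 34 cholesterol and fatty acid synthesis genes 0 were called by edgeR or DESeq2 and 3 had an unadjusted p under 0.05, 29 were above 0 with a median of 0.19, and HMGCS1 and MYLIP, chosen after their values were seen, were higher within times. Of 69 nuclear genes of the respiratory chain 0 passed in either edgeR fit or DESeq2 and 2 had an unadjusted p under 0.05, with 62 above 0, a median of 0.14 and pair medians of -0.22, 0.20 and 0.41. Of 40 ribosome biogenesis genes 0 passed in these fits and 2 had an unadjusted p under 0.05, with a median of 0.09. Lists of 36 glycolysis and hypoxia, 29 nucleotide and folate, 21 amino acid transporter, 29 heterochromatin, 28 AP-1 and EGR, 20 homing receptor, 11 germline and 13 mitochondrially encoded genes had 0 called in the first fit, with medians between -0.09 and 0.11. The within-time fit called 2 heterochromatin genes lower and 1 gene higher in each of the glycolysis, AP-1, homing and germline lists. At an unadjusted p under 0.05 they held, in that order, 3, 2, 2, 3, 5, 4, 1 and 1 genes, and DESeq2 called 1 gene in all, of the nucleotide list.

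**Figure D3:**
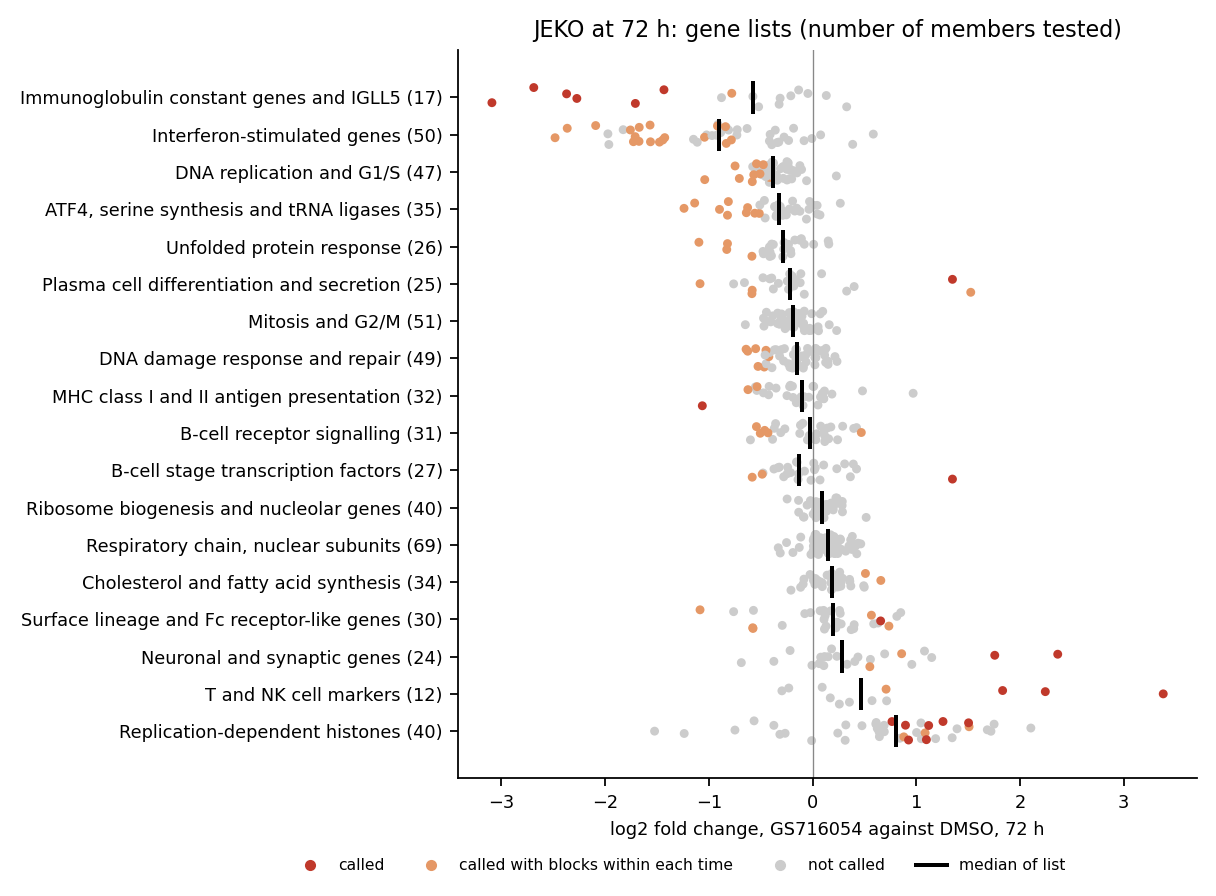
Log2 fold change (GS716054 against DMSO, JEKO at 72 h) of each tested member of 18 gene lists, with called genes in red, genes called in the within-time fit only in orange, all others in grey and a black bar at the list's median. The histone list has its median at 0.80 with 7 called higher, the immunoglobulin list at -0.58 with 6 called lower, and the interferon list at -0.90 with no red point.

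**Figure D4:**
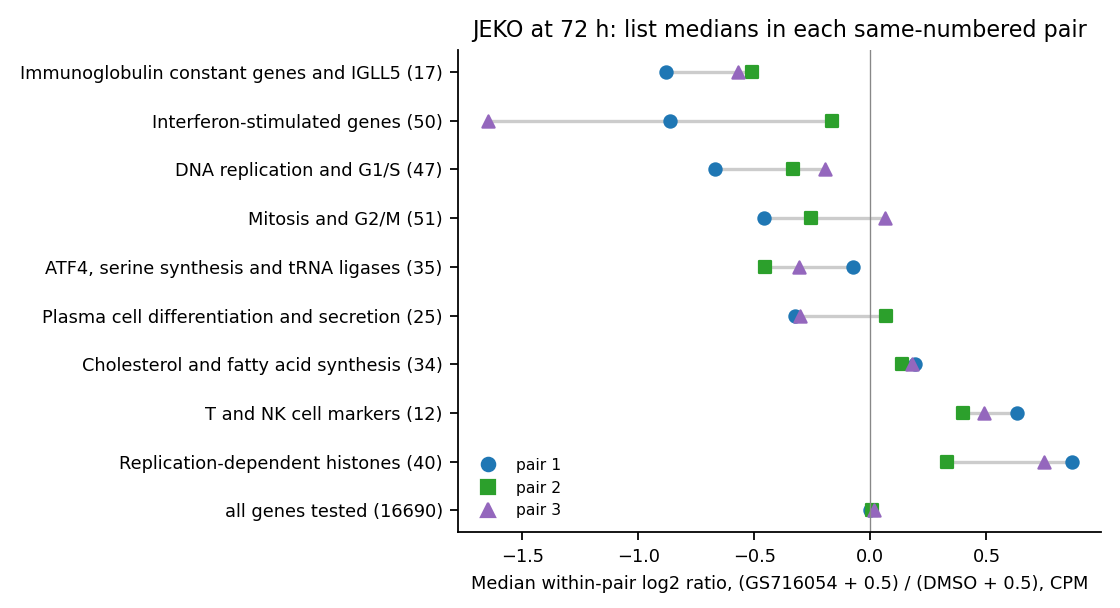
Median over each list of the within-pair log2 ratio of GS716054 to DMSO (0.5 CPM added) in JEKO at 72 h, with 1 point per same-numbered pair. The 3 interferon points lie at -0.86, -0.17 and -1.65, the 3 DNA replication points at -0.67, -0.33 and -0.20, and the mitosis points on both sides of 0.

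The 72 h response was set beside that of the same line at 24 h, which has its own DMSO libraries. In the first fit, the 24 h comparison called 8 of the 16690 tested (0.0479%): 1 rose (0.00599%) and 7 fell (0.0419%). The 24 h count with blocks within each time is not given here, so the 8 compare with 113 at 72 h and not with 557. Of the 85 genes raised at 72 h, 84 had the same sign at 24 h (98.8%) with a median log2 fold change of 0.54, and 1 was called. Of the 28 lowered, 27 had the same sign with a median of -0.52, and 5 were called. Over all genes tested with a value at 24 h, 49% were above 0 and 51% below. IGHG2 fell from 19.7 to 7.26 CPM at 24 h (means of 3, -1.5, edgeR adjusted p = 0.0176), IGHG3 changed by -1.11 (0.0407) and IGLL5 by -1.40 (0.0175, beside -1.43 at 72 h). H2AC6 had a log2 fold change of 0.20 at 24 h, VGF one of 1.32 and CCDC195 one of -1.10, none of them called. The difference between the 72 h and the 24 h effect passed for 0 genes in edgeR, with a smallest adjusted p of 0.484 and 415 genes (2.49%) at an unadjusted p under 0.05. DESeq2 called 2 genes, and edgeR without the filter on low counts called 21. A larger response at 72 h than at 24 h is thus not shown for any single gene tested in the first fit.

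The same treatment at 72 h was compared with the other lines in 1 fit of all 36 libraries, in which 215 genes were called in JEKO (1.2% of 17980), 2249 in MINO (12.5%) and 125 in UPN-1 (0.695%). Of all 17980 genes, 7.04% were called higher and 5.47% lower in MINO, and 0.578% higher and 0.117% lower in UPN-1. Of the 79 raised genes with a value in MINO, 61 had the same sign (77.2%) and 37 were called higher there, and of the 83 in UPN-1, 69 had the same sign (83.1%) and 16 were called higher. Over all genes tested, 48.1% were above 0 in MINO and 47.6% in UPN-1. Of 26 lowered genes with a value, 18 had the same sign in MINO, with 9 called lower and 2 higher, and 23 in UPN-1, with 8 called lower. LCK was called higher in MINO (1.40, adjusted p = 4.88e-05) and UPN-1 (1.04, 0.0181), as were CEND1 (2.63 and 1.95), TP53I11 (0.74 and 0.77) and MXD4 (1.38 and 0.57).

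The JEKO and MINO effects differed for 605 of 17980 genes (3.36%), 237 higher (1.32%) and 368 lower (2.05%) in JEKO, and, with blocks within each time, 828 higher (4.61%) and 970 lower (5.39%). VGF rose in JEKO and had a log2 fold change of -0.10 in MINO (difference 2.46, edgeR adjusted p = 0.000136). PRDM1 differed by 1.87 (0.000829), with -0.52 in MINO, CD86 by 1.08 (0.00504), with -0.43, and FAM163B by 2.01 (0.00189), with 0.09. HES7 differed by 4.48 (0.00337), with -1.48 in MINO. IGHG2 was lowered more in JEKO, by a difference of -2.58 (1.22e-07), and IGHG3 by -1.53 (8.4e-05). NIBAN3 differed by -1.19 (0.025). MYC, at 0.14 in JEKO, fell by 1.68 on the log2 scale in MINO (adjusted p = 2.73e-09), a difference of 1.82 (1.49e-06).

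The interferon genes differed between these lines. Of the 50, 14 were called higher and 1 lower in MINO, with a median of 0.75 there, and the effect was lower in JEKO for 21 by the test of the difference (median difference -1.75). OAS3, picked with its values in view, stood in JEKO at 61.9, 6.01 and 47.5 CPM with DMSO and at 24.3, 4.21 and 5.71 CPM with GS716054 (-1.71), rose by 2.55 in MINO (edgeR adjusted p = 0.0407), and differed by -4.25 (0.011). Of the 35 ATF4 pathway genes 25 were called lower in MINO, and 9 had a higher effect in JEKO by the test of the difference. For the histone genes, 8 were called higher in MINO and 0 in UPN-1, and the effect in JEKO differed from that in MINO for 2 of 40. The treated MINO libraries were uneven, so a shared histone increase is uncertain. Their mean CPM without TMM scaling was 68.1 for H2AC6 (SD 90.9), 48.4 for H2BC5 (SD 68.6) and 42.9 for H1-2 (SD 48.9). For H3C10 it was 3.65 (SD 2.26).

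The JEKO and UPN-1 effects differed for 2 genes (0.0111%), and 787 had an unadjusted p under 0.05. IGHG2 fell by 3.09 on the log2 scale in JEKO and by 1.08 in UPN-1 (difference -2.01, SE 0.31, edgeR adjusted p = 0.00765). STAMBPL1, picked with its values in view, had 0.35 in JEKO (adjusted p = 0.227) and -0.90 in UPN-1 (0.00158), a difference of 1.25 (SE 0.20, adjusted p = 0.00765). With blocks within each time, 50 genes differed (0.278%).

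**Figure D5:**
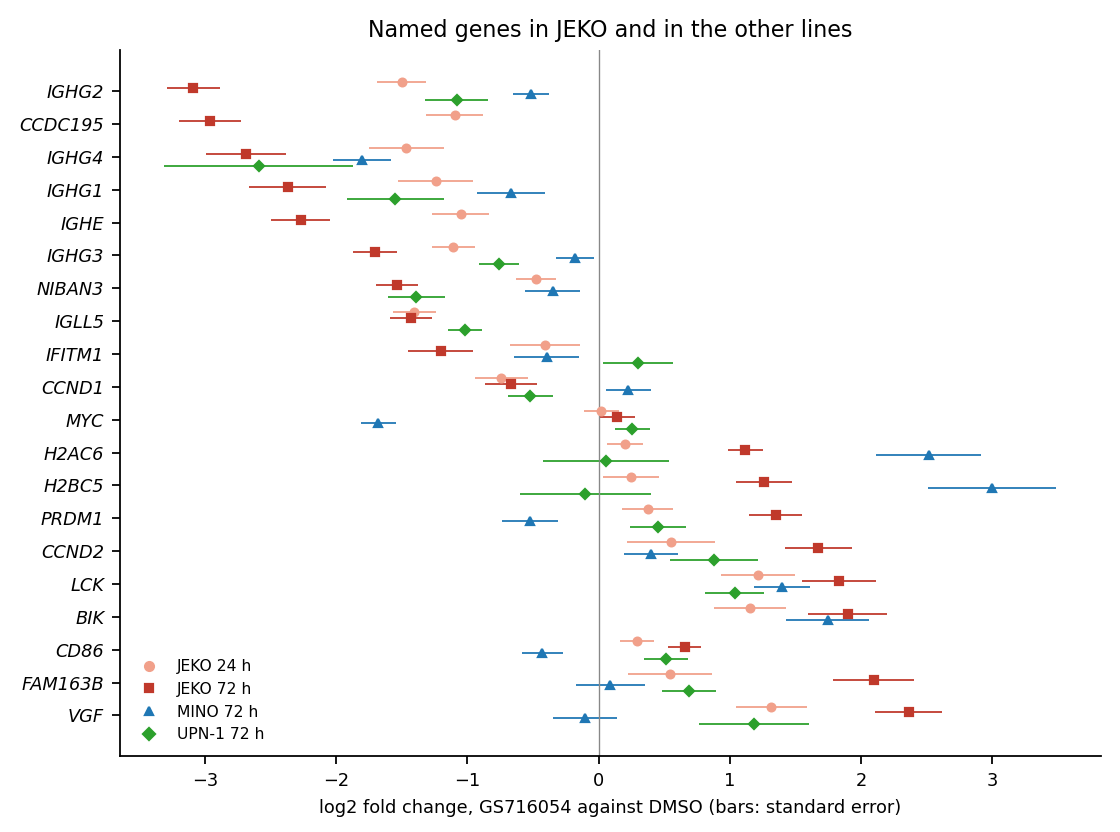
Log2 fold change (GS716054 against DMSO, points) with its standard error (bars) of 20 genes in JEKO at 24 h, JEKO at 72 h, MINO at 72 h and UPN-1 at 72 h, with lines of under 20 reads in both groups left out. IGHG2 lies at -1.5, -3.09, -0.51 and -1.08, VGF at 1.32, 2.36, -0.10 and 1.18, and MYC is low in MINO at -1.68.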

How the data were processed

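For each library the authors deposited raw read counts, integers for 58302 Ensembl gene IDs. Per the submitters' processing notes, HISAT2 2.2.1, HTSeq 0.13.5 and GRCh38 were used, and per the labels RNA came from a Qiagen mRNA kit. Strandedness and annotation release are not given in the sources used here. Summary lines (56.6% to 59.3% of reads) were left out. GENCODE v44 (GRCh38) named 57532 IDs.

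The 12 JEKO libraries were fitted in edgeR 4.0.16 (R 4.3.3, limma 3.58.1) with TMM scaling, filterByExpr (minimum count 10, total 15), a coefficient per group and the replicate number as a block, which left 6 residual degrees of freedom. SE is the absolute log2 fold change over the root of F. The numbers pair libraries within 72 h by the data (correlations all above 0.1, from 0.291 to 0.593, beside -0.142 to 0.169 across times). Blocks within each time were fitted as an alternative. DESeq2 1.42.0, no block, the 6 libraries alone, other scaling and filters, and each library left out were tried too. No replicates agreed within sampling noise (chi-square per degree of freedom 18.9 to 49.1). The first fit was tested on simulated counts whose replicate effects were shared between 24 h and 72 h. That test did not cover the within-time fit or the other fits.

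Genes named are KDM5A to KDM5D, CCND1, SOX11, MYC, BCL2, MCL1, BTK and CDKN1A, the 10 largest called changes and 5 smallest p-values in each direction (symbol, mean log2 CPM of at least 1, same direction in 3 pairs), up to 4 called genes per list, and the 2 largest called differences in each direction between times or lines. Genes named from the within-time fit alone lie outside this rule and were picked with their values in view. Members, lists and rule were chosen with earlier results of these data known. A further list is not reported here. Intervals and read minimums cover counting error only.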

Additional observations from a re-analysis of the deposited data

Results flagged for a closer look

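The results below stand apart because the effect of GS716054 at 72 h in JEKO differed from that in another line by a test of the difference (edgeR, all 36 libraries, Benjamini-Hochberg adjusted). VGF differed from MINO by 2.46 on the log2 scale (adjusted p = 0.000136) and was higher with GS716054 in 3 of 3 JEKO pairs. HES7 differed from MINO by 4.48 (adjusted p = 0.00337), with 10 reads in the JEKO DMSO libraries and 92 in the treated ones. COPDA1 differed from MINO by -3.43 (adjusted p = 0.018), with 63 and 2 reads in JEKO and a log2 fold change of -1.26 in MINO. The gene ENSG00000279024, without a symbol, differed by -4 (adjusted p = 0.00741): its log2 fold change was 1.03 in JEKO and 5.03 in MINO (2 reads with DMSO and 72 with GS716054 there), so it was higher with GS716054 in both. IGHG2 differed from UPN-1 by -2.01 (adjusted p = 0.00765) and was lower in both lines.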

How the results depend on the processing

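The count of 113 called genes in JEKO at 72 h was 117 with DESeq2 size factors and 98 with a minimum count of 50. It was 346 with DESeq2, 576 with no filter on low counts and 550 in the 6 libraries alone. For the replicate block, it was 50 with no block and 557 with the block within each time, where same-numbered libraries pair. Leaving out single libraries gave 20 to 65 genes, with every one of the 6 moving the count by over 1.5 times, and 91 to 223 with the block within each time (220, 214 and 97 without DMSO replicates 1 to 3, and 223, 207 and 91 without those of GS716054). Of the 113, 14 passed in all 6 omissions and 47 in none. The 0 genes whose effect differed between times became 2 with DESeq2 and 21 with no filter. The 605 genes that differed between JEKO and MINO became 197 with no block and 1798 with it within times, and 376 to 473 without single libraries, lowest without DMSO replicate 1. The 2 that differed between JEKO and UPN-1 became 1 with no block, 50 within times and 61 with no filter, and 2 to 3 without single libraries. For single genes, 1853 values kept their direction and side of the threshold, 245 passed it, 562 no longer did and 7 reversed, all of genes not called: leaving out single libraries gave -4.95 to 0.75 for IFI27, -0.068 to 0.21 for KDM5A, -0.12 to 0.10 for KDM5C and -0.11 to 0.14 for SOX11, each lowest without DMSO replicate 1 except IFI27, highest there, and SOX11 was at -0.0089 with no block. Medians of the immunoglobulin, histone, interferon, replication and ATF4 lists kept their sign in every alternative run, and the mitosis median reached 0.07 without GS716054 replicate 1. The cause of these shifts was not tested. Depth limits genes under about 0.26 CPM.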
